A study of Mus musculus with 12 samples.

Results

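The question here was which effects of Foxp3 deletion in regulatory T cells (Treg) depended on the tissue. For each gene the difference between ∆Foxp3 and WT Treg in lung was set against the same difference in spleen, and the contrast of the 2 is called the interaction. All genes with enough counts entered, 13295 of the 55011 symbols in the count table, and the rule used no measured effect. A gene was called when its adjusted p was under 0.05 (edgeR's quasi-likelihood test, Benjamini-Hochberg adjustment over all 13295 genes), and 123 genes (0.925%) were.

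RNA was sequenced from Treg of male C57BL/6 mice aged 21 days, in 4 groups of 3 libraries, each made from 1000 cells sorted as DAPI-negative, TCRβ+, CD4+, GFP+ and CD25+. The 6 WT libraries, 3 from spleen and 3 from lung, came from Foxp3.ires.GFP mice, which have an intact Foxp3 gene linked to GFP. The labels give the 3 spleen ∆Foxp3 libraries the genotype ∆Foxp3.EGFP.iCre X R26.YFP, and the 3 lung ∆Foxp3 libraries the genotype ∆Foxp3.ires.GFP. The protocol text in the same labels names ∆Foxp3.ires.GFP alone for both tissues. By the sample labels, then, the allele, the Cre and the R26.YFP reporter changed together with the tissue among the ∆Foxp3 libraries, so tissue and allele cannot be told apart in the interaction. Lungs were also digested with enzymes and enriched for CD4 cells with magnets, while spleens were only dissociated mechanically. Tissue and preparation cannot be told apart either, although preparation as described was the same for both genotypes of a tissue. No label ties a library to its own mouse, so the spread behind each p-value is that among libraries and could be technical.

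Foxp3 is the transcription factor that sets up and maintains the suppressive program of Treg, and mice without it develop a fatal inflammation of many organs. A GFP reporter driven from the Foxp3 locus marks cells that would have been Treg even when the protein is missing. Treg of the spleen are mostly resting, lymphoid-homing cells, while Treg of tissues such as lung carry more activated cells.

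Library totals ran from 3958892 to 9025150 counts, so that a floor of 3 counts in 1 library is 0.333 to 0.774 CPM (counts per 1000000 of the scaled library total). The deleted gene checked the labels: the Foxp3 level was 1021, 986 and 1090.4 CPM in the spleen WT libraries, 158, 113 and 225 CPM in the spleen ∆Foxp3 libraries, 1411, 1354 and 1321 CPM in the lung WT libraries, and 467, 383 and 188 CPM in the lung ∆Foxp3 libraries. All ∆Foxp3 libraries lay below all WT libraries, and the deletion's effect on Foxp3 RNA showed no called interaction (0.66 ± 0.39, log2 and standard error (SE), edgeR adjusted p = 0.700). Defining markers of the sorted cells were present throughout, and their interactions were not called either: Il2ra, which encodes CD25, at 0.53 ± 0.33, Cd4 at −0.01 ± 0.16 and Cd3e at 0.20 ± 0.16 on the log2 scale. Hemoglobin genes took 0.181% to 0.452% of the counts of the lung WT libraries and at most 0.0359% in any library of the other groups. Over all genes tested the median interaction was −0.008 (log2), and other scalings moved it to between −0.035 and 0.026.

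Genes that passed the test for deletion in both tissues nearly all moved the same way. ∆Foxp3 and WT differed in 3540 genes in spleen (26.6%: 1878 higher, 14.1%, and 1662 lower, 12.5%) and in 2686 genes in lung (20.2%: 1295 higher, 9.74%, and 1391 lower, 10.5%). Of the 1874 genes called in both tissues, 1864 had the same direction and 65 (3.47%) had a called interaction. Another 1666 genes were called in spleen but not in lung, yet the interaction was called for 48 of them (2.88%), and for 10 (1.23%) of the 812 genes called in lung but not in spleen. None of the 8943 genes called in neither tissue had a called interaction.

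**Figure D1:**
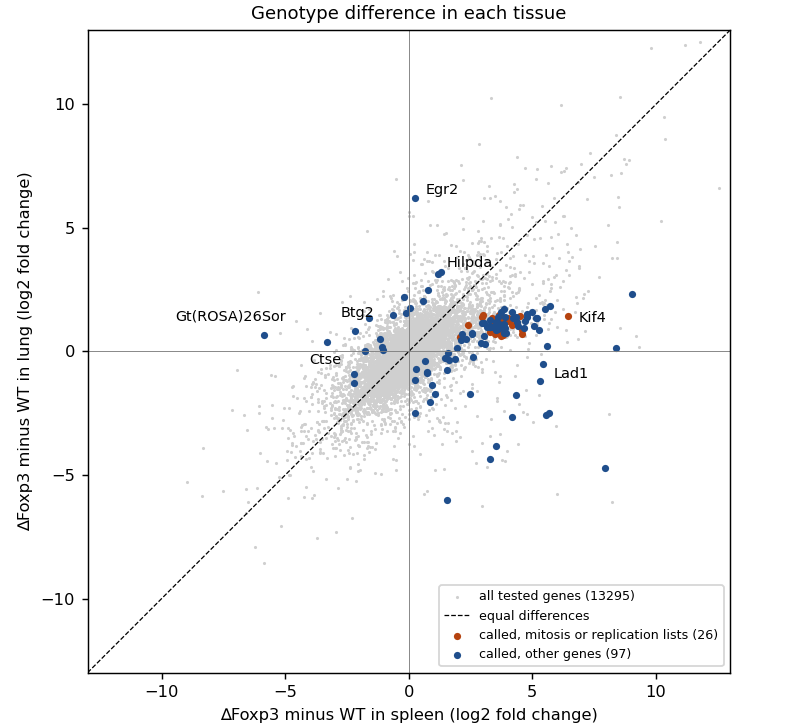
Log2 difference between ∆Foxp3 and WT Treg in spleen (horizontal) and in lung (vertical) for the 13295 genes tested, 1 point a gene, with the 123 genes called for the interaction coloured. Called genes of the mitosis and replication lists lie to the right, at spleen differences above those in lung, and the broken line marks equal differences.

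The 123 genes were unevenly split. The ∆Foxp3 minus WT difference was lower in lung than in spleen for 104 genes (0.782% of those tested) and higher in lung for 19 (0.143%). The 104 genes were largely ones that deletion raised in spleen: 98 of them were higher in spleen ∆Foxp3 than in spleen WT, and 49 were also higher in lung ∆Foxp3 than in lung WT, by less. Their median difference was 3.63 (log2) in spleen and 0.95 in lung. The 19 genes were mixed: 11 were lower in spleen ∆Foxp3 than in spleen WT, 11 were higher in lung ∆Foxp3 than in lung WT, and the medians were −1.05 in spleen and 1.36 in lung. Only genes selected for the interaction enter these counts, so the medians describe them and are no test. Each of the 123 genes also had the same sign of the interaction when group means of CPM were subtracted in place of logarithms.

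Read the other way, the interaction is the difference between lung and spleen in ∆Foxp3 Treg minus that in WT Treg. WT Treg differed between the tissues in 549 genes (4.13%: 412 higher in lung, 3.10%, and 137 lower, 1.03%). ∆Foxp3 Treg differed in 96 genes (0.722%: 73 higher in lung, 0.549%, and 23 lower, 0.173%). Of the 104 genes, 95 were higher in lung WT than in spleen WT and not called different between the ∆Foxp3 groups. The median lung minus spleen difference of the 104 genes was 2.39 (log2) in WT and −0.21 in ∆Foxp3. These genes were selected for the interaction, so the medians describe them and are no test. By the labels, tissue and allele cannot be told apart between the ∆Foxp3 groups. Of the 19 genes, 8 were called different between the tissues in WT alone, while 6 were called in ∆Foxp3 alone. A missed call in ∆Foxp3 does not show equal levels, and the difference between the genotypes is what the interaction tests.

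**Figure D2:**
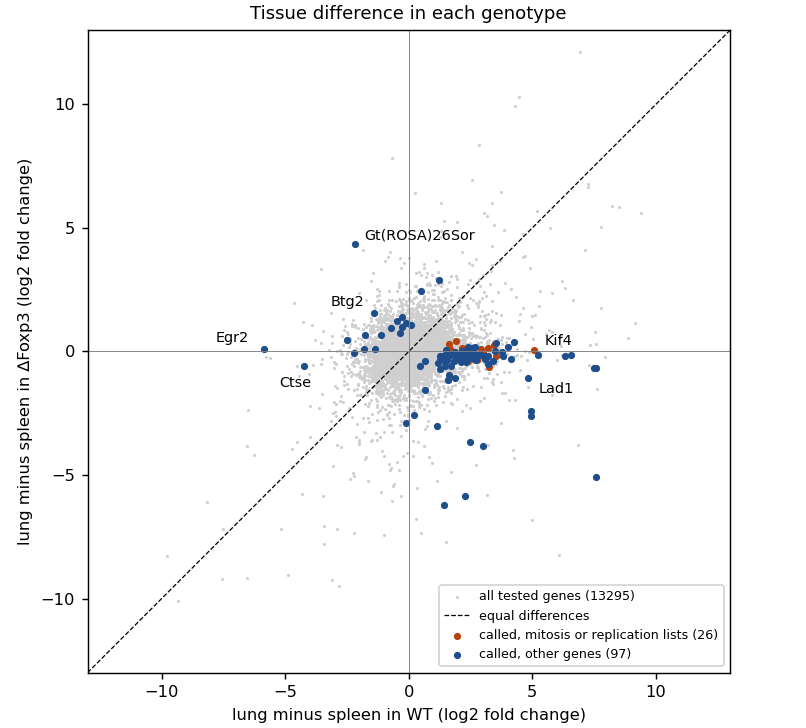
Log2 difference between lung and spleen in WT Treg (horizontal) and in ∆Foxp3 Treg (vertical) for the same 13295 genes. Most of the 123 called genes lie far from 0 along the WT axis and close to 0 along the ∆Foxp3 axis, and the 26 called genes of the mitosis and replication lists lie right of the centre.

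The largest group with a named function was the machinery of cell division. Cells that enter mitosis express motor proteins, kinetochore proteins and regulators of chromosome separation late in the cycle, while replication genes are switched on before, at the start of DNA synthesis. All 38 tested members of the mitosis and kinetochore list had a negative interaction, and the median was −2.59 (log2), against −0.01 over all genes tested. Of the 38, 20 were called (52.6%, against 0.925% of all genes tested), all of them lower. All 38 rose in spleen with deletion (median 3.64), whereas 14 rose in lung (median 1.04), against 14.1% and 9.74% of all genes tested. In WT Treg, 31 of the 38 were higher in lung than in spleen (median 2.34), against 3.10% of all genes tested. In ∆Foxp3 Treg none of the 38 was called different (median −0.18). That count is near the 0.722% over all genes tested and so no result about them. The range of the list's median over the alternatives was −2.89 to −2.31, but the number of called members ranged from 4, without lung ∆Foxp3 library 1, to 28 with DESeq2.

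The summed level of the mitosis list showed the same in the single libraries. It was 637, 462 and 632 CPM in spleen WT, 7223, 7627 and 3371 CPM in spleen ∆Foxp3, 2432, 2317 and 3658 CPM in lung WT, and 4507, 6779 and 5339.8 CPM in lung ∆Foxp3. The spleen WT libraries were lowest and did not overlap any other group, and the ∆Foxp3 groups overlapped each other. The third spleen ∆Foxp3 library, at 3371 CPM, lay below the highest lung WT library. The ratio of the means of ∆Foxp3 and WT was 10.5 in spleen and 1.98 in lung. In these bulk samples a larger share of dividing cells and more of these transcripts per dividing cell cannot be told apart.

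Kif11 (chr19:37376403-37421859, plus strand, mm10), the motor that pushes spindle poles apart, carried one of the smallest adjusted p values of the mitosis list. Its level was 5.76, 6.93 and 9.52 CPM in spleen WT, 205, 206 and 95.8 CPM in spleen ∆Foxp3, 63.7, 54.7 and 87.5 CPM in lung WT, and 168, 211 and 179.6 CPM in lung ∆Foxp3. Spleen WT was lowest with no overlap, lung WT came next, and the ∆Foxp3 groups overlapped. The difference between genotypes was 4.51 (log2) in spleen and 1.44 in lung, and the interaction −3.08 ± 0.40 (SE, edgeR adjusted p = 0.00267). Kif4 (chrX:100625737-100727214, plus strand), the motor that compacts chromosomes and organises the central spindle, had the largest interaction of the list. Its counts were very low in spleen WT, at 0.554, 0 and 1.38 CPM, against 78.7, 68.9 and 30.4 CPM in spleen ∆Foxp3, 15.2, 26.6 and 26.4 CPM in lung WT, and 47.5, 75.4 and 59.6 CPM in lung ∆Foxp3. Its interaction was −5.02 ± 0.71 (edgeR adjusted p = 0.00521), and the size of the spleen effect, 6.44, leans on a spleen WT group near the floor of 3 counts.

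Ccna2 (chr3:36564865-36572150, minus strand) encodes cyclin A2, which drives S phase and entry into mitosis. It stood at 36.2, 30.8 and 24.0 CPM in spleen WT, 482, 440.4 and 212 CPM in spleen ∆Foxp3, 157, 134 and 211 CPM in lung WT, and 280.4, 429 and 331 CPM in lung ∆Foxp3. The lowest spleen ∆Foxp3 library was level with the highest lung WT library, and the interaction was −2.58 ± 0.40 (log2, edgeR adjusted p = 0.00741). Cdc20 (chr4:118432901-118437352, minus strand), the activator of the complex that triggers chromosome separation, had 17.3, 16.9 and 26.6 CPM in spleen WT, 295, 270.3 and 150.1 CPM in spleen ∆Foxp3, 76.5, 62.4 and 120.0 CPM in lung WT, and 172, 238 and 193 CPM in lung ∆Foxp3. The groups of WT were each below both ∆Foxp3 groups, without overlap, and the interaction was −2.34 ± 0.40 (edgeR adjusted p = 0.0137). Without lung ∆Foxp3 library 1 the adjusted p of Cdc20 was 0.0542.

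Upstream DNA of 3 of these motor and regulator genes is shown because they moved together, and because genes of late cell cycle are known for 2 short promoter elements. One is TTTGAA, the core of the cell cycle homology region, and the other is CCAAT, bound by NF-Y. Each run holds the 250 bases before the start that RefSeq gives (GRCm38.p6, the mm10 assembly), 5′ to 3′ on the gene's strand. The gene bounds given above come from the GENCODE annotation, whose starts differ from these. By those bounds the Kif4 run lies inside the gene, and the Cdc20 run overlaps the gene's first bases. The positions below therefore hold for the RefSeq start only. Capitals mark either motif or its reverse complement, TTCAAA or ATTGG. The runs are at chr19:37376132-37376381 (plus strand) for Kif11, chrX:100625815-100626064 (plus strand) for Kif4, and chr4:118437344-118437593 (minus strand) for Cdc20.
Kif11: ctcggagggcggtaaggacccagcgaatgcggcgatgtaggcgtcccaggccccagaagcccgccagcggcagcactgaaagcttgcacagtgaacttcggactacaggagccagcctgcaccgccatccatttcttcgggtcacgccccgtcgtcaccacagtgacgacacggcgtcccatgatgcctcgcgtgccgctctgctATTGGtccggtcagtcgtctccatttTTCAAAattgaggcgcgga
Kif4: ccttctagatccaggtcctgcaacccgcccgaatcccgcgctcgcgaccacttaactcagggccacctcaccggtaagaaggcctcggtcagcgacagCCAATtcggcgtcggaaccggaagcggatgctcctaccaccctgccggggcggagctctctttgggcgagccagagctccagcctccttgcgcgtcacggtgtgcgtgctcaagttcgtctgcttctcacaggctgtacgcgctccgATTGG
Cdc20: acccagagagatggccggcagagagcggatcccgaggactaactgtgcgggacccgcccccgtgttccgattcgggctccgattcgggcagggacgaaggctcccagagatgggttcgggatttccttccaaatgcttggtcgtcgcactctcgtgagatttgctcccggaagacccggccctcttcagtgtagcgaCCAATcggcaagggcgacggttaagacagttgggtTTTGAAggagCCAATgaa

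The first base of TTTGAA or its complement lay 19 bases before the start of Kif11 and 18 bases before that of Cdc20, counted as −19 and −18, and Kif4 held no TTTGAA in this window. All 3 held CCAAT or its complement, at −45 in Kif11, at −152 and −5 in Kif4, and at −53 and −8 in Cdc20. Of the 38 tested mitosis genes, 33 had a RefSeq promoter entry. TTTGAA in either orientation was found in 30.3% of these 33 and in 16.3% of all 27025 promoters of the same length, CCAAT in 75.8% against 34.5%, and both in 27.3% against 5.73%. Among the 9463 tested genes with an entry, 11.1% held TTTGAA, 37.0% CCAAT and 4.41% both. For the replication list 35 of 43 genes had an entry, of which 11.4% held TTTGAA, 60.0% CCAAT and 8.57% both. CCAAT was found in 58.5% of the 82 entries of genes called lower in lung and in 58.3% of the 12 of genes called higher. TTTGAA was found in 20.7% and 16.7% of the same entries. The search took both strands and let matches overlap, though none did in these 3 runs. A match is a string of letters in a window, and binding was not measured.

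The replication genes shared the direction at smaller size. Of the 43 tested members of the DNA replication list, 42 had a negative interaction, with a median of −1.09, and 6 were called, all lower. All 43 rose with deletion in spleen and 36 rose in lung. Their summed level was 1969.7, 1784 and 1634 CPM in spleen WT, 8522, 11900.5 and 5332 CPM in spleen ∆Foxp3, 3171, 3801 and 4546 CPM in lung WT, and 7042, 9478 and 9874 CPM in lung ∆Foxp3. Here lung WT lay between spleen WT and both ∆Foxp3 groups without overlap. The ratio of ∆Foxp3 to WT was 4.78 in spleen and 2.29 in lung. Called members ranged from 2, without spleen WT library 2, to 22 with no filter on low counts.

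Among the called replication genes, Uhrf1, which keeps DNA methylation through replication, had 12.5, 16.5 and 24.7 CPM in spleen WT, 311, 398 and 182 CPM in spleen ∆Foxp3, 109.7, 124 and 175 CPM in lung WT, and 256, 323 and 374 CPM in lung ∆Foxp3. Its interaction was −2.83 ± 0.42 (log2, edgeR adjusted p = 0.00599), and the lowest spleen ∆Foxp3 library exceeded the highest lung WT library only narrowly. Pole, the catalytic subunit of the leading-strand polymerase, had −2.66 ± 0.41. Chaf1a, a subunit of the histone chaperone of new chromatin, had −3.17 ± 0.59, and Cdc45, part of the replicative helicase, −2.02 ± 0.38. Uhrf1 and Pole were called without each library in turn, while the calls of Chaf1a and Cdc45 were lost without any of 7 and 6 of the 12 libraries, with adjusted p up to 0.0642 and 0.0820. Together the mitosis and replication lists hold 81 tested genes, of which 26 were called, against 0.925% of all genes tested.

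Other called genes of chromosome biology lay outside those lists, except Cenpf and Nusap1 below, which are called members of the mitosis list. Ncapg2 (chr12:116405402-116463731, plus strand), a subunit of condensin II, had 3.88, 6.22 and 2.92 CPM in spleen WT, 133, 127 and 100.4 CPM in spleen ∆Foxp3, 21.9, 41.3 and 45.7 CPM in lung WT, and 90.9, 111 and 112 CPM in lung ∆Foxp3. Lung WT stood apart from spleen WT below and from both ∆Foxp3 groups above, and the interaction was −3.28 ± 0.40 (log2, edgeR adjusted p = 0.00149). Nek2, a centrosome kinase, had −3.41 ± 0.44, Mxd3, a Myc-network repressor, −3.69 ± 0.51, and Tcf19, a nuclear factor of cycling cells, −2.41 ± 0.34. All 4 were called without each library in turn. Esco2, which acetylates cohesin, had −4.42 ± 0.73, and the repair gene Brca1 −3.84 ± 0.67. Without lung ∆Foxp3 library 1 their adjusted p was 0.0511 and 0.0522. Cenpf at −3.87 ± 0.77, Nusap1 at −3.71 ± 0.69, Exo1 at −3.90 ± 0.80, Cip2a at −4.03 ± 0.79 and Iqgap3 at −3.80 ± 0.84 were each lost without any of 8 to 10 of the 12 libraries, with adjusted p up to 0.148.

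Genes with a negative interaction also lay outside cell division. Yod1 (chr1:130717327-130724358, plus strand), a deubiquitinase, had 10.1, 15.1 and 21.8 CPM in spleen WT, 101, 90.7 and 92.4 CPM in spleen ∆Foxp3, 105, 93.6 and 92.4 CPM in lung WT, and 88.6, 86.2 and 71.8 CPM in lung ∆Foxp3. Spleen WT alone was low. Yod1 rose by 2.60 (log2) in spleen, its difference in lung was −0.24 (edgeR adjusted p = 0.475), and the interaction was −2.84 ± 0.31 (adjusted p = 0.000645). Lad1, which encodes the filament protein ladinin, had the same form: 0, 1.96 and 0.461 CPM in spleen WT, 37.0, 38.2 and 19.6 CPM in spleen ∆Foxp3, 21.4, 22.4 and 18.9 CPM in lung WT, and 16.1, 17.6 and 10.7 CPM in lung ∆Foxp3. Its interaction was −5.92 ± 0.84 (edgeR adjusted p = 0.00454). Nfil3, a transcription factor of effector lymphocytes, stood at 0.665 to 2.46 CPM in spleen WT and at 11.7 to 33.4 CPM in the other groups, and Gcnt1, which builds core 2 O-glycans, at 0.711 to 1.66 CPM and at 9.03 to 89.9 CPM. Their interactions were −3.19 ± 0.62 and −3.82 ± 0.75, each lost without any of 7 of the 12 libraries, with adjusted p up to 0.0820 and 0.0985. Rab27a, which brings lytic granules to the membrane, had a small interaction, −1.02 ± 0.21, and was lost without any of 8 libraries (adjusted p up to 0.113).

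Against these stood 19 genes whose ∆Foxp3 minus WT difference was higher in lung. Egr2 (chr10:67535475-67542188, plus strand) encodes a zinc finger factor induced by signals from the T cell receptor. Its level was 63.3, 60.5 and 37.9 CPM in spleen WT, 65.3, 81.8 and 46.7 CPM in spleen ∆Foxp3, 1.71, 0 and 0.875 CPM in lung WT, and 101, 64.1 and 43.8 CPM in lung ∆Foxp3. Lung WT alone was near 0, and the other 3 groups overlapped. The difference between genotypes was 0.26 (log2, edgeR adjusted p = 0.647) in spleen and 6.23 in lung, and the interaction was 5.97 ± 0.66 (adjusted p = 0.000758).

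Dusp6, a phosphatase that dampens ERK signalling, and Egr1, a relative of Egr2, were also lowest in lung WT. Dusp6 (chr10:99263231-99267489, plus strand) had 39.3, 38.0 and 26.0 CPM in spleen WT, 74.4, 104 and 75.8 CPM in spleen ∆Foxp3, 10.9, 7.22 and 11 CPM in lung WT, and 109.8, 79.7 and 88.0 CPM in lung ∆Foxp3. It rose in both tissues, by 1.30 (log2) in spleen and 3.23 in lung, with an interaction of 1.94 ± 0.33 (edgeR adjusted p = 0.0121, and 0.0511 without lung ∆Foxp3 library 1). Egr1 had 79.4, 106 and 66.0 CPM in spleen WT, 45.7, 63.9 and 52.8 CPM in spleen ∆Foxp3, 20.4, 18.6 and 15.9 CPM in lung WT, and 39.0, 53.5 and 61.4 CPM in lung ∆Foxp3. It fell by 0.63 in spleen and rose by 1.49 in lung, and the interaction was 2.12 ± 0.32 (edgeR adjusted p = 0.00600).

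Btg2 (chr1:134075170-134079120, minus strand), an immediate early gene that restrains cell division, likewise went in opposite directions. Its level was 741, 642 and 630.1 CPM in spleen WT, 165, 126 and 157 CPM in spleen ∆Foxp3, 357, 204 and 189.8 CPM in lung WT, and 393, 387 and 544 CPM in lung ∆Foxp3. In spleen the WT libraries were far above, and in lung all ∆Foxp3 libraries lay above all WT libraries (the nearest were 357 and 387 CPM). Btg2 fell by 2.17 (log2) in spleen and rose by 0.82 in lung, giving an interaction of 2.98 ± 0.31 (edgeR adjusted p = 0.000496). The cytokine gene Tnf also fell in spleen and rose in lung, at lower levels, with 32.9 to 79.4 CPM in spleen WT, 7.57 to 23.6 CPM in spleen ∆Foxp3, 7.07 to 10.3 CPM in lung WT and 21.3 to 24.9 CPM in lung ∆Foxp3. Its interaction was 2.97 ± 0.56 (edgeR adjusted p = 0.0212) and was lost without any of 6 libraries, with adjusted p up to 0.0692.

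The list of immediate early genes, which answer stimulation within minutes and are also raised by tissue digestion, held 36 tested members. Of these 30 had a positive interaction, against 6544 of all 13295 genes, and the median was 0.81 (log2). The 3 called (8.33%, against 0.925% of all genes tested) were Egr2, Btg2 and Egr1. In spleen 2 members rose and 8 fell with deletion, and in lung 9 rose and 2 fell. Of all genes tested, 14.1% rose and 12.5% fell in spleen, and 9.74% rose and 10.5% fell in lung. Between the tissues, 3.10% of all genes tested were higher and 1.03% lower in lung in WT, and 0.549% and 0.173% in ∆Foxp3. Lung exceeded spleen for 9 members in WT and for 13 in ∆Foxp3, and 4 were lower in lung in WT against 0 in ∆Foxp3. Among the 9 is Tnfaip3, an inhibitor of NF-κB, whose lung minus spleen difference was 2.89 (log2) in WT and 2.64 in ∆Foxp3, with an interaction of −0.25 (edgeR adjusted p = 0.926). The members Egr2, Egr1, Btg2 and Myc were the 4 lower in lung WT. The list's summed level was 5213, 4104 and 3707 CPM in spleen WT, 2809.6, 2955 and 2419 CPM in spleen ∆Foxp3, 10597, 5385 and 4530.1 CPM in lung WT, and 8781, 8982 and 10723 CPM in lung ∆Foxp3. Lung WT library 1 stood well above the other lung WT libraries, and without it the list's median interaction was 1.45. Lung and spleen differed in enzymatic digestion, and the part of digestion in these values was not tested. Tnfaip3 and Myc were named after their values were seen.

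**Figure D3:**
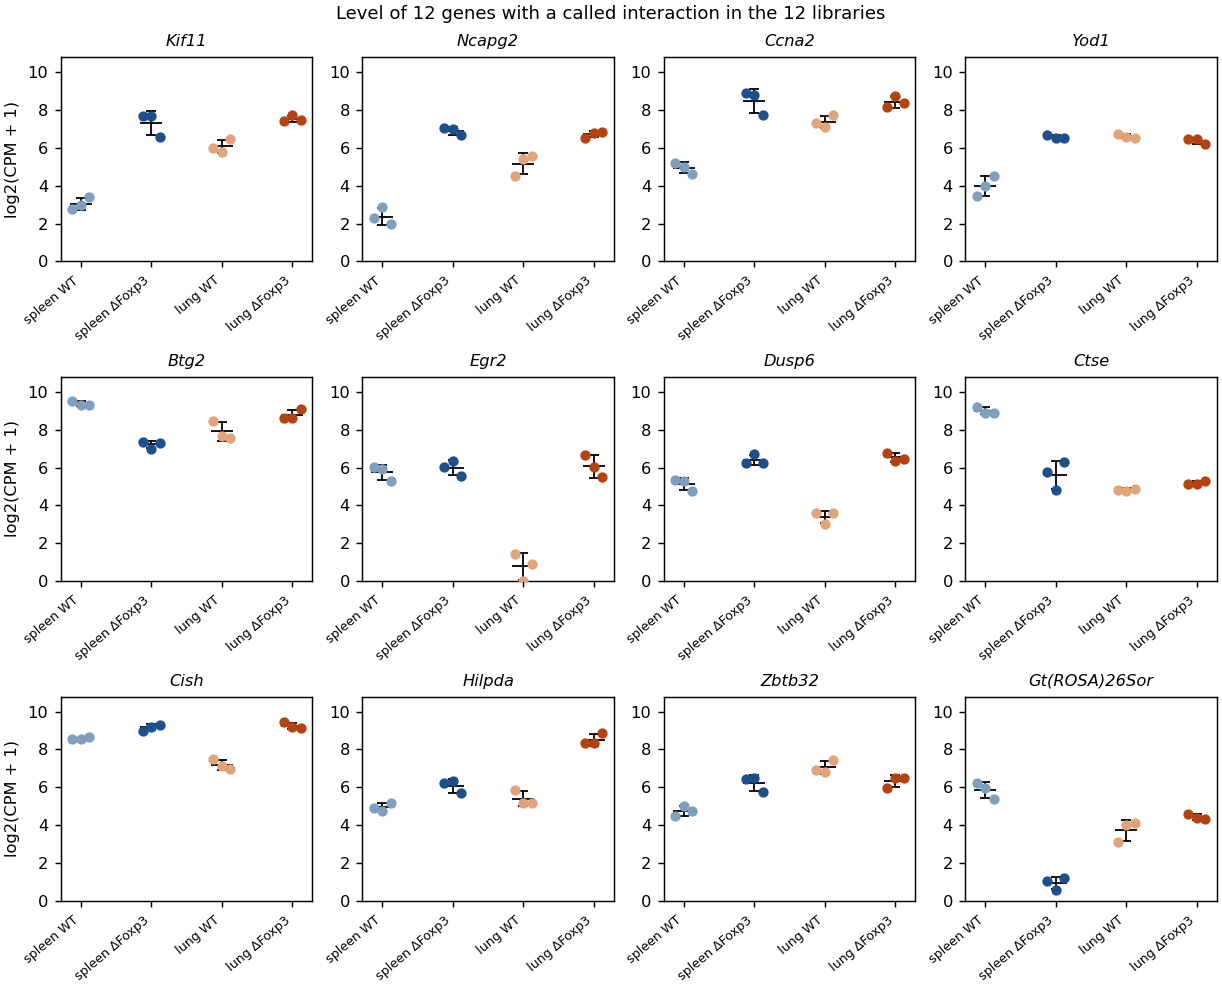
Level of 12 genes with a called interaction, as log2(CPM + 1), in each of the 12 libraries (points), with the group mean and SD (bars). Spleen WT stands apart at the bottom for Kif11, Ncapg2, Ccna2 and Yod1, lung WT for Egr2, Dusp6 and Cish, and spleen ∆Foxp3 for Gt(ROSA)26Sor.

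The interleukin 2 pathway signals through CD25 and STAT5, and Treg depend on it. Its targets gave 2 calls among 21 tested genes (9.52%, against 0.925% of all genes tested), both higher. The median was 0.58, and 18 of the 21 were positive, as were 6544 of all 13295 genes. Cish (chr9:107296026-107302784, plus strand), a feedback inhibitor induced by STAT5, had 374, 379 and 397 CPM in spleen WT, 510.1, 580.2 and 635 CPM in spleen ∆Foxp3, 179, 139 and 125 CPM in lung WT, and 699, 573 and 563 CPM in lung ∆Foxp3. Cish rose in both tissues, by 0.59 (log2) in spleen and 2.05 in lung, from a lower WT level in lung, and the interaction was 1.47 ± 0.22 (edgeR adjusted p = 0.00537). Its relative Socs2 fell by 1.07 in spleen, differed by 0.19 in lung (edgeR adjusted p = 0.496), and had an interaction of 1.26 ± 0.26 that was lost without any of 9 libraries (adjusted p up to 0.106). The receptor subunits Il2ra, Il2rb and Il2rg had interactions of 0.53, 0.18 and 0.06 that were not called; Il2rb and Il2rg were named after their values were seen.

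Ctse (chr1:131638306-131675505, plus strand), the aspartic protease cathepsin E, was high in spleen WT alone. Its level was 595, 477 and 477 CPM there, 52.9, 27.0 and 76.7 CPM in spleen ∆Foxp3, 27.4, 26.0 and 28.7 CPM in lung WT, and 34.2, 33.5 and 38.5 CPM in lung ∆Foxp3. Ctse fell by 3.30 (log2) in spleen, its lung difference was 0.37 (edgeR adjusted p = 0.371), and the interaction was 3.66 ± 0.38 (adjusted p = 0.000496). Swap70, a signalling adaptor at the membrane and the actin cytoskeleton, fell by 1.05 in spleen and differed by 0.06 in lung (edgeR adjusted p = 0.853), with 144 to 150.2 CPM in spleen WT against 59.2 to 82.1 CPM in spleen ∆Foxp3, 94.0 to 133 CPM in lung WT and 100.1 to 132 CPM in lung ∆Foxp3. Its interaction of 1.11 ± 0.24 was lost without any of 10 libraries (adjusted p up to 0.147). AC149090.1, a gene known by its clone name, fell by 1.78 in spleen, differed by 0.01 in lung (edgeR adjusted p = 0.975), and had an interaction of 1.79 ± 0.28 (adjusted p = 0.00713).

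A further group was highest in lung ∆Foxp3. Hilpda (chr6:29272488-29275446, plus strand), a protein of lipid droplets induced by hypoxia, had 28.7, 26.1 and 35.3 CPM in spleen WT, 74.0, 79.7 and 50.0 CPM in spleen ∆Foxp3, 56.4, 35.3 and 34.6 CPM in lung WT, and 319, 321 and 459.5 CPM in lung ∆Foxp3. It rose by 1.17 (log2) in spleen and by 3.12 in lung, and the interaction was 1.95 ± 0.33 (edgeR adjusted p = 0.0121). Dgat1, which makes the triglyceride stored in such droplets, had 34.9 to 43.8 CPM in spleen WT, 34.6 to 38.8 CPM in spleen ∆Foxp3, 71.7 to 112 CPM in lung WT and 192 to 354 CPM in lung ∆Foxp3. Its interaction was 1.67 ± 0.30 (edgeR adjusted p = 0.0166) and was lost without any of 5 libraries (adjusted p up to 0.0603). The list of glycolysis and hypoxia genes as a whole gave 0 calls among 23, a count near the 0.925% over all genes tested. Its median was −0.33, and its abundant members Ldha and Pkm had interactions of −0.31 and −0.61.

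The chemokine receptor gene Ccr8, a marker of effector Treg and of Th2 cells, had 85.1, 63.7 and 56.2 CPM in spleen WT, 96.4, 150.1 and 108 CPM in spleen ∆Foxp3, 73.5, 35.8 and 39.4 CPM in lung WT, and 315, 220.4 and 302 CPM in lung ∆Foxp3. Lung ∆Foxp3 was highest with no overlap. Its interaction of 1.71 ± 0.38 passed narrowly (edgeR adjusted p = 0.0486) and was lost without any of 10 libraries (adjusted p up to 0.157). Gadd45g, a stress sensor that promotes Th1 cytokine production, was 29.8 to 31.4 CPM in spleen WT, 25.4 to 39.1 CPM in spleen ∆Foxp3, 18.0 to 19.1 CPM in lung WT and 40.9 to 82.0 CPM in lung ∆Foxp3. Its interaction was 1.69 ± 0.35 (edgeR adjusted p = 0.0357), lost without any of 8 libraries (adjusted p up to 0.117). Of the 19 genes, 2 fell in both tissues and by less in lung, Cdkn1b and Clec2i, named here after their values were seen. Cdkn1b, the cell cycle inhibitor p27, had 274, 223 and 214 CPM in spleen WT, 50.0, 48.4 and 52.6 CPM in spleen ∆Foxp3, 270.3, 245 and 247 CPM in lung WT, and 110.0, 111 and 93.4 CPM in lung ∆Foxp3. WT levels overlapped between the tissues, and spleen ∆Foxp3 was lowest with no overlap (interaction 0.96 ± 0.20, edgeR adjusted p = 0.0357). The calls of Cdkn1b and Clec2i were each lost without any of 9 libraries, and their adjusted p reached 0.122 for Cdkn1b and 0.148 for Clec2i over the 26 alternatives.

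The smallest adjusted p of all belonged to Gt(ROSA)26Sor (chr6:113067428-113077333, minus strand), the non-coding transcript of the Rosa26 locus, into which reporter transgenes are commonly inserted. Its level was 74.0, 61.3 and 40.4 CPM in spleen WT, 1.09, 0.477 and 1.29 CPM in spleen ∆Foxp3, 7.50, 15.0 and 16.3 CPM in lung WT, and 23.0, 19.7 and 18.7 CPM in lung ∆Foxp3. Spleen ∆Foxp3 was near 0, and the labels give R26.YFP to that group alone. Gt(ROSA)26Sor fell by 5.85 (log2) in spleen, its lung difference was 0.66 (edgeR adjusted p = 0.167), and the interaction was 6.51 ± 0.54 (adjusted p = 5.5e-05). In WT Treg it was lower in lung than in spleen by a log2 difference of −2.18. Thumpd3, which overlaps it on the opposite strand, had an interaction of 0.09 ± 0.25 (adjusted p = 0.975). The strand setting of the counting is not known here, so reads of the overlap may have been shared or dropped.

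Opposite directions in the 2 tissues, each passing the test, were found for 10 genes (all 10 also had a called interaction). Btg2, Tnf and Egr1 fell in spleen and rose in lung. The other 7 rose in spleen and fell in lung, among them Zbtb32, Pmm1, Cdc25b, Gda and the less described BC064078 and Gm15987. Zbtb32 (chr7:30589681-30598909, minus strand), a transcriptional repressor of activated lymphocytes, had 21.7, 31.1 and 25.5 CPM in spleen WT, 85.9, 88.0 and 52.3 CPM in spleen ∆Foxp3, 119, 113 and 174 CPM in lung WT, and 61.3, 88.0 and 90.3 CPM in lung ∆Foxp3. The WT groups were the extremes and the ∆Foxp3 groups overlapped between them. Its interaction was −2.29 ± 0.34 (log2, edgeR adjusted p = 0.00599). Pmm1, an enzyme of mannose metabolism, had −1.56 ± 0.32, and Cdc25b, a phosphatase that activates cyclin-dependent kinases, −1.62 ± 0.35. Both had their highest levels in lung WT, at 48.0 to 68.6 CPM and 611 to 676 CPM, and were lost without any of 8 and 9 libraries (adjusted p up to 0.122 and 0.138).

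Lrp1, an endocytic receptor abundant in macrophages, and Plxnb2, a semaphorin receptor, formed another low-level pair. Lrp1 had 0.998, 0.711 and 0.307 CPM in spleen WT, 27.8, 4.06 and 11.7 CPM in spleen ∆Foxp3, 6.22, 2.84 and 2.80 CPM in lung WT, and 1.15, 1.58 and 0.667 CPM in lung ∆Foxp3. Spleen ∆Foxp3 spread widely and overlapped lung WT, and the interaction was −6.13 ± 1.03 (log2, edgeR adjusted p = 0.0121). Plxnb2 had 9.07 to 19.8 CPM in spleen ∆Foxp3 and 0.395 to 7.22 CPM elsewhere, with −4.18 ± 0.88 and a call lost without any of 9 libraries (adjusted p up to 0.138). Of 16 tested markers of monocytes, macrophages and dendritic cells, 14 had a negative interaction, against 50.8% of all genes tested, and the median was −3.21. Of these markers 0 were called, a count near the 0.925% over all genes tested. The summed level of all 21 listed markers was 557 to 824 CPM in spleen ∆Foxp3, 389 to 686 CPM in spleen WT, 326 to 1027 CPM in lung WT and 239 to 328 CPM in lung ∆Foxp3. Ctss alone made up 52.2% of this sum on average, with 143 to 421 CPM in every library, so the sum mostly follows that gene. Lung WT library 1 gave the 1027 CPM, against 339 and 326 CPM in the other lung WT libraries. Csf1r, the macrophage growth factor receptor, had 109, 13.1 and 49.7 CPM in spleen ∆Foxp3, the same order of libraries as Lrp1, and 0, 0 and 0.222 CPM in lung ∆Foxp3. It had 28.5, 27.0 and 9.06 CPM in spleen WT, where Lrp1 was under 1 CPM, and 6.00, 1.29 and 0.350 CPM in lung WT. The complement genes C1qa and C1qb, the 2 markers with a positive interaction and named here after their values were seen, had 4.06 to 94.6 CPM in the spleen libraries and 0 to 0.395 CPM in the lung libraries. The part of such cells in the Lrp1 and Plxnb2 results was not tested.

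Of the 123 genes, 9 had 3 counts or fewer in some group, all of them among the 104. In spleen WT, Jcad, an endothelial junction protein, Ermn, a cytoskeletal protein of myelinating cells, and Thbd, thrombomodulin, had 0 counts in all. Jcad was at least 60.6-fold higher in spleen ∆Foxp3 than the floor of 3 counts over that group, Ermn at least 81.0-fold and Thbd at least 8.45-fold. In lung the pooled levels of Jcad were 4.42 CPM in WT and 4.81 CPM in ∆Foxp3, those of Ermn 2.10 and 10.7 CPM, and those of Thbd 4.07 and 0.718 CPM. Mmp25, a membrane protease, had 1 count in spleen WT against 52 in spleen ∆Foxp3, 79 in lung WT and 36 in lung ∆Foxp3. Nrep had 87 counts in lung WT and 4, 9 and 1 in spleen WT, spleen ∆Foxp3 and lung ∆Foxp3. The guanine deaminase gene Gda had 3 counts in spleen WT, 33 in spleen ∆Foxp3, 74 in lung WT and 5 in lung ∆Foxp3. Jcad lost its call without lung ∆Foxp3 library 1 alone (edgeR adjusted p = 0.0542). The calls of Ermn, Thbd, Mmp25, Nrep and Gda were lost without 10 or more of the 12 libraries. Gm15987, also among the 9, was called under all 26 alternatives.

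**Figure D4:**
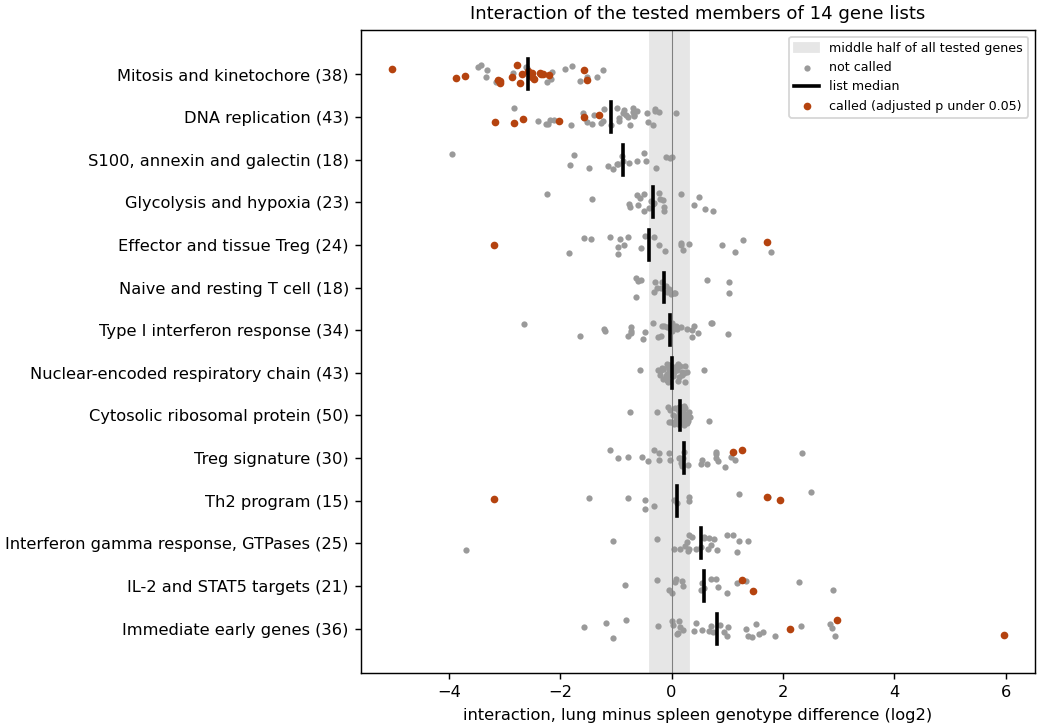
Interaction (log2) of each tested member of 14 gene lists, 1 point a gene, called genes in red, the list median as a bar, and the middle quartiles of all tested genes shaded. The mitosis list lies wholly below 0, with a median of −2.59, and the immediate early list mostly above, with a median of 0.81.

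The lists of Treg and effector T cell genes held from 0 to 3 called interactions each, set here beside the 0.925% called over all genes tested. The Treg signature had 2 called members of 30 (6.67%), Socs2 and Swap70, both higher, and a median of 0.22. With deletion 15 of its members fell and 3 rose in spleen, and 7 fell and 5 rose in lung. Of all genes tested, 12.5% fell and 14.1% rose in spleen, and 10.5% fell and 9.74% rose in lung. The list of 24 effector and tissue Treg genes had 13 members higher and 1 lower in spleen ∆Foxp3, 10 higher and 1 lower in lung ∆Foxp3, and 2 members (8.33%) with a called interaction, Ccr8 higher and Nfil3 lower. The naive and resting T cell list gave 0 called interactions of 18 (median −0.14), with 12 members lower and 1 higher in ∆Foxp3 in each tissue. In the T helper lists the interaction was called for 3 of 15 Th2 genes (Dusp6 and Ccr8 higher, Nfil3 lower), 1 of 10 cytokines (Tnf), and 0 of 16 Th1, 9 Th17 and 12 follicular helper genes.

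Type I interferon genes, whose products block viral replication, fell in both tissues, 24 of 34 in spleen and 27 in lung, with 0 called interactions and a median of −0.02. Ifi27l2a fell by 2.17 (log2) in each tissue. Genes of the interferon gamma response behaved less evenly. In spleen 5 of 25 fell and 0 rose, in lung 5 rose and 1 fell, 22 had a positive interaction, and the median was 0.53, but 0 interactions were called. Of all genes tested, 12.5% fell and 14.1% rose in spleen, 10.5% fell and 9.74% rose in lung, and 0.925% had a called interaction. At that share, 0 called interactions is no result about either interferon list. Gbp4, a GTPase of cell-autonomous defence, was one of the 5 that rose in lung, by 0.63, against −0.03 in spleen, and its interaction of 0.66 did not pass (edgeR adjusted p = 0.383). Gbp4 was named after its values were seen.

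Calcium-binding and membrane-binding proteins of the S100, annexin and galectin families, which accumulate in activated and tissue-resident T cells, leaned the other way. All 18 tested members had a negative interaction, against 50.8% of all genes tested, with a median of −0.88. None was called, a count near the 0.925% over all genes and so no result about them. With deletion, 12 rose in spleen and 1 in lung, against 14.1% and 9.74% of all genes tested. Vim, the intermediate filament vimentin and the most abundant member, had 1110.1, 809 and 718 CPM in spleen WT, 2454, 2608 and 3878 CPM in spleen ∆Foxp3, 1908, 2067 and 2496 CPM in lung WT, and 2284, 4393 and 4418 CPM in lung ∆Foxp3. It rose by 1.76 (log2) in spleen and 0.78 in lung, and the interaction of −0.98 ± 0.35 was not called (edgeR adjusted p = 0.330). The inhibitory receptor gene Tigit came close, with −1.10 ± 0.25 (edgeR adjusted p = 0.0574), having risen by 1.74 in spleen and 0.64 in lung.

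Housekeeping lists held 0 called interactions, a count near the 0.925% background for lists of 11 to 50 genes and so no result about them. The median interaction was 0.00 over 43 nuclear-encoded respiratory chain genes, 0.16 over 50 ribosomal protein genes, 0.21 over 23 cholesterol genes, 0.19 over 11 mitochondrially encoded genes and −0.00 over 21 chaperone genes. Chemokine receptors had 1 call of 23 (Ccr8), cytotoxic granule genes 1 of 16 (Rab27a), and the lists of integrin subunits (18 tested), co-inhibitory receptors (17), TNF receptors (14) and chemokines (8) none. Markers of B cells, neutrophils, mast cells and eosinophils, NK cells, CD8 and gamma delta T cells, endothelium, lung epithelium and fibroblasts gave 0 called interactions. At unadjusted p under 0.05 the interaction gave 1231 of the 13295 genes.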

How the data were processed

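RNA was counted in 12 libraries of sorted mouse Treg (4 groups of 3). Smart-seq2 copies polyadenylated RNA and amplifies it; per the labels' protocols there were 18 cycles, reads were pairs of 38 nt, and molecules carried no identifiers. STAR 2.7.3a, featureCounts, Subread 2.0.0 and build mm10 were used, per the submitters' processing notes. The annotation and strand setting were not given in the sources at hand. Raw counts by gene symbol, as the authors deposited them, were used unchanged; 98.2% of tested symbols matched GENCODE M21, the source of coordinates.

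Counts were tested with edgeR 4.0.16 (R 4.3.3): TMM factors, the default low-count filter by group, and a robust quasi-likelihood fit over all 12 libraries with the group as the only term. P-values were two-sided and Benjamini-Hochberg adjusted over 13295 genes, and calls were those under 0.05. CPM are TMM-scaled. SE were derived from the test, as the absolute log2 value divided by the square root of its F statistic. The floor is 3 counts, and floors cover counting error only. The fit was tested on simulated data.

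The members, lists and alternatives were chosen with earlier results of these data known, including which 3 libraries stand apart (spleen WT 1, lung WT 1 and lung ∆Foxp3 3). Named genes were the 12 largest called interactions per direction with 10 CPM or more in a group and over 3 counts in every group, the 10 smallest adjusted p, up to 10 called in opposite directions, up to 4 called members of each of 27 lists and 10 marker lists (or the 2 most abundant where none passed), Foxp3, Il2ra, Cd4, Cd3e and Trbc2, and up to 6 called genes with 3 counts or fewer in a group. Some single genes are not reported here. Receptor segments, pseudogenes and predicted genes were not named, except in lists and for Gm15987. Alternatives were other scalings, filters, DESeq2 1.42.0, limma 3.58.1 voom with quality weights, a test against a fold of 1.5, replicate blocks, thinning, gene sets left out of the totals, and libraries left out.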

Additional observations from a re-analysis of the deposited data

Results flagged for a closer look

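For 123 genes the ∆Foxp3 minus WT difference passed the test of a difference between lung and spleen. By the labels, tissue and allele cannot be told apart in that test. The values of the named genes are gathered here by how they held when each of the 12 libraries was left out in turn. Values are interactions on the log2 scale, positive where the ∆Foxp3 minus WT difference was higher in lung.

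Of the 50 named called genes, 21 were called without each library in turn. The positive ones were Gt(ROSA)26Sor at 6.51, Egr2 at 5.97, Ctse at 3.66, Btg2 at 2.98, Egr1 at 2.12, Hilpda at 1.95, AC149090.1 at 1.79 and Cish at 1.47. The negative ones were Lrp1 at −6.13, Lad1 at −5.92, Kif4 at −5.02, Yod1 at −2.84, Ncapg2 at −3.28, Nek2 at −3.41, Kif11 at −3.08, Mxd3 at −3.69, Tcf19 at −2.41, Zbtb32 at −2.29, Ccna2 at −2.58, Uhrf1 at −2.83 and Pole at −2.66. Among all 123 genes, 28 were called under every one of the 26 alternatives that give an interaction without a fold threshold (8 positive and 20 negative), and 3 of these 28 are in the mitosis or replication lists. Those lists do not hold every gene of cell division. Ncapg2, Nek2, Mxd3 and Tcf19, described above with chromosome biology, are among the 28 and outside them.

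Another 5 named genes lost the call without lung ∆Foxp3 library 1 alone. They were Dusp6 at 1.94, Esco2 at −4.42, Brca1 at −3.84 and Cdc20 at −2.34, and Jcad at −8.24, with adjusted p of 0.0511 to 0.0542 there (edgeR).

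The other 24 named genes lost it without any of 5 or more libraries. The positive ones were Tnf at 2.97, Ccr8 at 1.71, Gadd45g at 1.69, Dgat1 at 1.67, Socs2 at 1.26 and Swap70 at 1.11. The negative ones with more than 3 counts in every group were Plxnb2 at −4.18, Cip2a at −4.03, Exo1 at −3.90, Cenpf at −3.87, Gcnt1 at −3.82, Iqgap3 at −3.80, Nusap1 at −3.71, Pmm1 at −1.56, Cdc25b at −1.62, Nfil3 at −3.19, Chaf1a at −3.17, Cdc45 at −2.02 and Rab27a at −1.02. The negative ones with few counts were Gda at −7.37, Ermn at −6.72, Mmp25 at −6.50, Nrep at −7.56 and Thbd at −8.15, and their fitted sizes, like that of Jcad, depend on the small count the fit adds and are no bounds.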

How the results depend on the processing

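All 123 genes kept the sign of the interaction in every alternative that tested them, whereas 21 of the 53 named genes that were not called changed sign in at least 1. The 123 genes were selected for the interaction in these same libraries, and uncalled genes often lie near 0. This contrast was therefore largely fixed in advance and is no test. Among the named genes, 308 comparisons of a named gene with an alternative lost a call and 11 gained one. The number of calls was less stable than the sign. The 123 interactions became 363 with no low-count filter (71 higher and 292 lower), 301 with DESeq2 (50 and 251), 190 with limma (46 higher) and 50 against a fold of 1.5 (10 and 40), with 120, 122, 98 and 50 of the 123 genes shared. Leaving out 1 library gave 36 to 178 calls (9 to 27 higher and 27 to 155 lower): 36, 69 and 54 without lung ∆Foxp3 1, 2 and 3, 52 and 68 without lung WT 3 and 2, 48 without spleen ∆Foxp3 1, and 72 without spleen WT 2; each such fit has fewer samples. The 3540 spleen calls became 1648 against the fold, 2271 with the spleen libraries only, and 2711 to 3574 without 1 library. The 2686 lung calls became 4598 with limma, 932 against the fold, 1321 without the 3 libraries that stand apart, and 1457 to 3362 without 1 library. The 549 tissue calls in WT became 957 with no filter, 1046 with DESeq2 and with limma, 235 against the fold, and 281 to 693 without 1 library. The 96 in ∆Foxp3 became 292, 235, 228 and 38 under the same 4 settings, and 42 to 152 without 1 library. Where a count moved with the test, the cause was not tested. The labels' replicate numbers were not taken to pair samples: deviations of libraries with the same number correlated between −0.077 and 0.087 over the 6 pairs of groups. With the replicate block 74 interactions were called (61 lower, 69 shared with the 123), and 101 with the block nested in genotype. At the depth of these libraries, levels under 0.333 to 0.774 CPM (3 counts) are not told apart from 0.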
